A study of Zea mays with 2 samples.

Results

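A closed triad is a set of 3 loop anchors on 1 chromosome, called A, B and C from left to right, in which every pair was listed as a chromatin loop: the side loops A-B and B-C, and the outer loop A-C that spans both. In maize leaf, 3549 such triads were found among 25628 loops of chromosomes 1 to 10 in the second of 2 Hi-C replicates. They were chosen on the loop calls of that replicate by exact anchor coordinates, so that the existence of the 3 loops, and their enrichment over background, is how they were picked and not a result. The comparison set was the 16200 open chains, in which A-B and B-C were listed and A-C was not. Triads and open chains together made 19749 chains, of which 18.0% were closed (95% Wilson interval 17.4 to 18.5).

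Hi-C joins DNA ends that lie close together in fixed nuclei and counts the joined pairs, so a loop is a pair of places that meet more often than their surroundings. The ends of a loop are its anchors, and in plant genomes they are often found at genes, at open chromatin and at domain borders. Hi-C counts pairs only. A closed triad may stand for 3 anchors that gather in the same nucleus or for 3 separate pairs in different nuclei, and which of these holds was not measured. Domains are stretches of a chromosome that contact themselves more than their neighbours, and they nest in levels, with level 0 the outermost.

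Both replicates were libraries from whole leaves of the inbred line B73 at the v04 stage, grown in a greenhouse without any treatment, and each replicate pooled the leaves of several plants of 1 batch. There was a single condition, so no contrast between conditions existed and no test was run. Values are given for each replicate, shares carry counting intervals, and the 10 chromosomes serve as the spread. Triads share anchors and loops with each other and with open chains, so these intervals cover counting error only and are too narrow.

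The replicates differed in the resolution of their loop lists. All loops of replicate 2 had anchors of 10 kb, with a median of 32 contacts per loop (quartiles 22 and 48). Replicate 1 listed 16863 loops, of which 33.9% had anchors of 5 kb, 40.8% of 10 kb and 25.3% of 25 kb, with a median of 21 contacts (quartiles 15 and 31). By exact coordinates a triad needs 3 anchors of equal placement, and replicate 1 held 145 triads among 2787 chains, or 5.20% closed (95% Wilson interval 4.44 to 6.09). Of these, 30 had 5-kb, 67 had 10-kb and 48 had 25-kb anchors. With overlapping anchors of replicate 1 joined, it held 1130 triads among 9288 chains, or 12.2% closed (95% Wilson interval 11.5 to 12.8). The counts of triads in the replicates are therefore not on 1 scale.

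Triads drew in a large part of the loop list but mostly as small units. They used 8367 loops, or 32.6% of all loops, and 6702 anchors, or 24.5% of the 27344 anchors. Of the triad loops, 76.9% belonged to 1 triad only and 19.4% to 2, and no loop was in more than 5. Of the triad anchors, 57.8% served only as an outer anchor, 24.1% only as a middle anchor, and 18.1% as both in different triads. Joined through shared anchors, the triads formed 1682 groups. A single triad alone made up 938 of those groups, or 55.8%, and the largest group held 18 anchors.

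Larger sets in which every anchor was looped to every other were rare. There were 206 sets of 4 anchors, including those inside a larger set, and 750 triads (21.1%) lay in such a set. Only 4 sets of 5 anchors were found, on chromosomes 2, 8, 3 and 1, with spans of 280, 320, 550 and 220 kb, and none of 6. The set with the most contacts, on chromosome 2 of B73 RefGen_v4, ran from the anchor at chr2:201390001-201400000 to that at chr2:201670001-201680000. Its 10 loops held 455 contacts in all, between 18 and 127 each, at 2.97 to 10.98 times the expectation from their surroundings on the contact map. Of these 10 loops, 3 were found in replicate 1, and the sets on chromosomes 8, 3 and 1 had 3, 1 and 0 of their 10 loops there. The anchor in the most triads was chr3:22420001-22430000, in 14 triads, with 6 loops to the left and 3 to the right. It was the right end of 8 triads, the middle of 4 and the left end of 2.

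Triads occurred at a similar rate on all chromosomes. The closed share of chains ranged from 16.5% on chromosome 5 to 20.9% on chromosome 7, with a mean of 18.0% ± 1.52 (SD over 10 chromosomes). There were between 1.37 triads per Mb on chromosome 4 and 2.04 on chromosome 1. When each chromosome was divided into 5 equal parts, they held 846, 431, 465, 902 and 905 triads from left to right. The loops followed the same course, so that the closed share of chains stayed between 17.3% and 18.3% in all 5 parts.

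Triads spanned less than open chains, a difference that the rule of choice favours. A triad needs a listed A-C loop, an open chain must lack it, and looped pairs were rarer at long distances. Of any 2 anchors of replicate 2 on the same chromosome, 31.1% were looped at 50 to 100 kb and 1.69% at 450 to 500 kb. The same rule was used on every chromosome and in replicate 1. Whether triads are shorter beyond this was not tested. The distance from the start of A to the start of C had a median of 220 kb in triads (quartiles 150 and 310) and of 330 kb in open chains (quartiles 210 and 490). The median was shorter in triads on 10 of 10 chromosomes, lying between 200 and 240 kb, against 300 to 340 kb in open chains, and these ranges did not overlap. In replicate 1 by exact anchors, the medians were 250 kb in 145 triads and 340 kb in 2642 open chains. Side loops of triads had a median length of 100 kb on both sides, against 150 kb in open chains. A span of at most 300 kb was seen in 73.1% of triads and 45.5% of open chains, and a span over 1 Mb in 0.592% and 2.85%. No loop shorter than 40 kb was listed, so no triad could span less than 80 kb, and 68 triads had exactly that span.

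The middle anchor leaned to neither end. A-B was the shorter side in 46.6% of triads and B-C in 47.4%, and 6.03% had sides of equal length. The shorter side took a median of 35.7% of the span in triads and 33.3% in open chains. Over spans of 200 to 900 kb held equal, chains closed in 12.2% of cases where the shorter side took under 20% of the span, in 14.2% at 20 to 30%, in 15.3% at 30 to 40% and in 14.8% at 40 to 50%. Over these spans the evenly divided chains were thus closed about as often as those at 30 to 40%, and the most lopsided least often. Left out of this comparison were 149 triads of 50 to 100 kb, 633 of 100 to 150 kb and 697 of 150 to 200 kb. Over all spans, without span held equal, the shares were 11.2%, 16.9%, 19.1% and 21.2% in the same order.

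The closed share of replicate 2 was lower at long spans, and replicate 1 did not follow the same course up to 300 kb. In replicate 2 it was 28.6% for chains of 50 to 100 kb (95% Wilson interval 24.9 to 32.6), 33.8% at 100 to 150 kb, 24.8% at 200 to 250 kb, 11.8% at 350 to 400 kb and 9.43% at 450 to 500 kb. In replicate 1 with overlapping anchors joined it was 8.66% at 50 to 100 kb, 15.6% at 100 to 150 kb, 17.1% at 200 to 250 kb, 13.5% at 350 to 400 kb and 7.69% at 450 to 500 kb. With exact anchors it lay between 6.47% and 8.82% in the 5 bins up to 300 kb, with 68 to 302 chains a bin. Because loops become rarer with distance, the chains were set against anchor pairs on the same chromosome at the same span, in bins of 50 kb, in which A had a loop to the right and C a loop to the left but no middle anchor joined them. Of such pairs, 6.43% were looped when weighted as the chains, against 18.1% of the 19602 chains in these bins, a ratio of 2.81. An outer pair entered the chains once for each of its middle anchors, whereas each of the other pairs was counted once. The number of loops per anchor was not held equal. The chains were above the pairs on 10 of 10 chromosomes, with ratios from 2.35 to 3.14. Restricted to pairs whose own loops lay between A and C, the pair share was 5.39%, and over any 2 anchors it was 8.25%. At 50 to 100 kb, however, 31.1% of any 2 anchors were looped, above the 28.6% of chains, while chains were higher from 100 to 500 kb. In replicate 1 with overlapping anchors joined, any 2 anchors stood above chains at 50 to 100 kb (35.3% against 8.66%) and at 100 to 150 kb (24.4% against 15.6%). From 150 to 500 kb its chains were higher.

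The ratio of chains to pairs grew with span, while their difference was widest in the middle spans. At 50 to 100 kb, 23.6% of the pairs without a shared middle anchor were looped, near the 28.6% of chains. At 150 to 200 kb the pairs stood at 12.6% and the chains at 29.2%, at 200 to 250 kb at 8.43% and 24.8%, and at 450 to 500 kb at 0.959% and 9.43%. Replicate 1 with overlapping anchors joined gave 4.75% for pairs and 12.3% for chains, a ratio of 2.59. There the shortest bin was reversed, with 8.66% of chains against 11.4% of pairs at 50 to 100 kb. With exact anchors, replicate 1 had 0.581% against 5.37%. Against any 2 anchors, however, its chains stood only slightly higher, at 5.37% against 4.64%. Both of these pair shares count pairs of unlike anchor size, 5, 10 or 25 kb. Each loop was listed at 1 size, so such pairs could not be looped. The pair shares of replicate 1 with exact anchors are lowered by this and are not comparable with its chains. The same triads can be counted from A or from C, where 2 of their loops leave 1 anchor on the same side. For 2 loops that left 1 anchor to the right, with partners at least 40 kb apart, the partners were themselves looped in 35.2% of 10091 cases, and to the left in 35.6% of 9972. In both counts the looped cases were the same 3549 triads, and only the number of pairs they were set against differed. The distance between such partners was not measured, and these shares were not at equal span with those of chains.

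**Figure D1:**
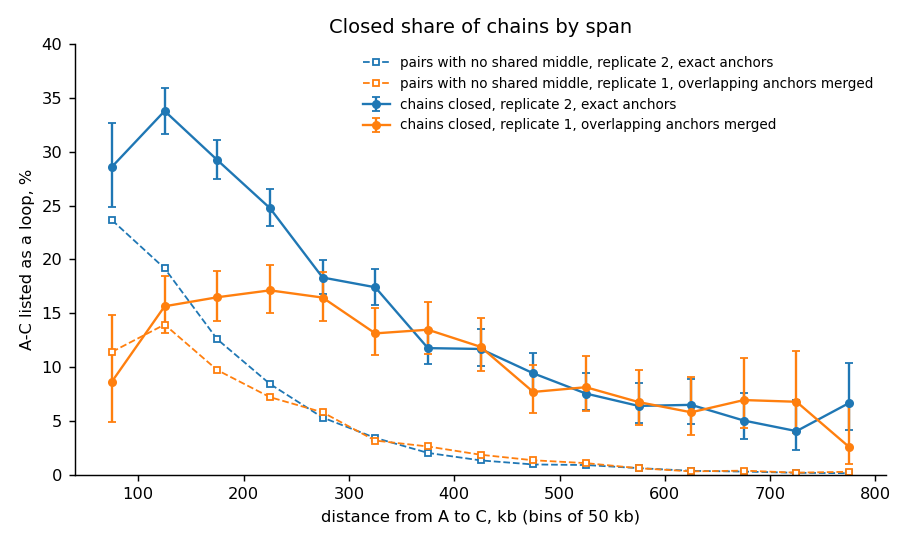
Share of chains closed by an A-C loop (filled points, with 95% Wilson intervals) and share of anchor pairs without a shared middle anchor that were looped (open squares), against the distance from A to C in bins of 50 kb. Replicate 2 by exact anchors is blue and replicate 1 with overlapping anchors joined is orange, with its first bin reversed (8.66% of chains against 11.4% of pairs), and in replicate 2 the chains lie above the pairs in every bin drawn, from 28.6% against 23.6% in the first to 9.43% against 0.959% at 450 to 500 kb.

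The outer loop, always the longest, mostly held the fewest contacts of the 3, while its median ratio to expectation was slightly higher than that of the shorter sides. Contacts are the read pairs counted at the brightest cell of the loop on the contact map. Their ratio to expectedDonut, the number expected from a ring of cells around the loop on the contact map, is called the donut ratio here. The median contacts were 44 at A-B (quartiles 30 and 62), 44 at B-C (quartiles 30 and 64) and 25 at A-C (quartiles 19 and 35). The outer loop had fewer contacts than both sides in 69.0% of triads and more than both in 8.45%. The median donut ratios were 4.79, 4.80 and 5.15. In 38.2% of triads the outer loop had the highest donut ratio of the 3 and in 23.4% the lowest. Over triads, the donut ratio of A-C divided by the mean of both sides had a median of 1.04. Divided by the weaker side it was 1.28 in replicate 2 and 1.31 in the 145 triads of replicate 1, values that lie above 1 in part because the weaker of 2 loops is taken. At equal length the outer loops had fewer contacts than the side loops of triads in the bins from 50 to 500 kb. They had 39 against 52 at 50 to 100 kb, 34 against 41 at 100 to 150 kb and 25 against 30 at 200 to 250 kb. At 500 to 550 kb they had 19 against 17. The donut ratios went both ways. Those of outer loops were lower from 100 to 350 kb, with 4.79 against 4.91 at 100 to 150 kb, and at 450 to 500 kb. They were higher at 50 to 100 kb (4.57 against 4.40), 350 to 400 kb (5.54 against 5.30), 400 to 450 kb (5.63 against 5.11) and 500 to 550 kb (5.97 against 5.71). All of these loops were selected by being called, so these are descriptions of the selected set.

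Side loops of triads were richer in contacts than those of open chains of the same length. Weighted as the triads in bins of 50 kb of loop length, the medians were 44.1 contacts in triads and 37.1 in open chains, a difference of 6.98, which was positive on 10 of 10 chromosomes (6.04 to 8.36). The donut ratios were 4.71 and 4.31, a difference of 0.394, again positive on 10 of 10 chromosomes (0.217 to 0.539). This excess in the donut ratio held in the bins up to 350 kb only. From 350 to 550 kb the triads were lower in each bin, with 5.11 against 5.63 at 400 to 450 kb and 5.71 against 6.01 at 500 to 550 kb. With each loop counted once, loops of triads had 37.2 contacts and loops of open chains that were in no triad had 31.4, with donut ratios of 4.74 and 4.34. Among replicate 1's own triads the differences were 3.71 contacts and 0.249 in the donut ratio, over 169 side loops.

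The same side loops, measured in the other library, differed by less. Replicate 1 listed 1311 of the 7098 side loop entries of triads and 4054 of the 32400 of open chains with identical anchors. At equal length their contacts in replicate 1 were 24.2 in triads and 23.2 in open chains, a difference of 1.03, and their donut ratios were 4.80 and 4.73, a difference of 0.071. In replicate 2 these same loops differed by 3.37 contacts and 0.239. Only loops strong enough to be called in both replicates entered this comparison. Outer loops of triads had 26.1 contacts, against 24.2 in loops of equal length that were in no triad, and their donut ratios were 5.10 and 4.71.

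**Figure D2:**
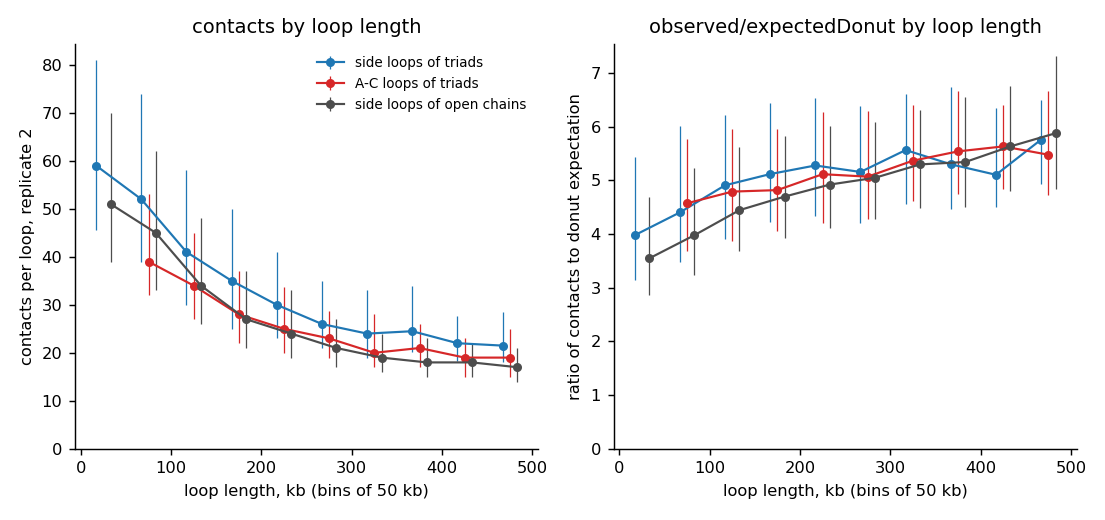
Median contacts per loop (left) and median donut ratio (right) in replicate 2 against loop length in bins of 50 kb, with lines to the quartiles, for side loops of triads (blue), outer A-C loops of triads (red) and side loops of open chains (grey); points are shifted sideways for legibility. In loops of 50 to 100 kb the side loops of triads had a median of 52 contacts and those of open chains 45, with quartiles that overlapped widely.

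A small share of triads had an outer loop near the limit of calling. The larger of the donut and lower-left q-values of A-C was over 0.01 in 99 triads (2.79%) and over 0.05 in 12. These 99 outer loops had a median of 17 contacts and a donut ratio of 3.71. Just outside the rule, 1808 open chains (11.2%) had a loop within 1 bin of 10 kb of A-C at both ends, with a median of 23 contacts and a donut ratio of 4.85. Counting those as closed would raise the triads to 5357.

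Recurrence in replicate 1 was measured by at least 1 bp of overlap at both anchors with 1 loop there. Each loop was looked up on its own, so the 3 loops found for a triad need not share anchors in replicate 1. Over all loops of replicate 2, 30.3% recurred. Of the triads, 280 had all 3 loops in replicate 1, or 7.89% (95% Wilson interval 7.05 to 8.82), 977 had 2, 1511 had 1 and 781 had none. A-B recurred in 45.1% of triads, B-C in 44.8% and A-C in 31.4%, so the side loops stood above the share of all loops and the outer loop near it. In open chains, A-B recurred in 29.4% and B-C in 28.4%. Both sides recurred in 21.0% of triads (95% Wilson interval 19.7 to 22.3) and in 7.97% of open chains (95% Wilson interval 7.56 to 8.40), and at equal span in 21.1% and 8.38%. Each loop counted once, 38.7% of the loops of triads recurred, against 26.3% of loops in no triad. At equal length these were 38.9% and 27.3%, and at equal contacts, in bins of 10, 38.4% and 29.6%.

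The outer pair was found in replicate 1 in 31.6% of triads and 6.48% of open chains at equal span. By the rule it had been listed in replicate 2 in the triads and not in the open chains, so these shares set listed pairs against unlisted ones. Without the span held equal, 877 open chains, or 5.41% (95% Wilson interval 5.08 to 5.77), were closed by a loop of replicate 1. Unlooped pairs without a shared middle anchor, weighted to the spans of the open chains, were listed in replicate 1 in 2.95% of cases, against 5.45% of open chains over those spans. Where both sides had recurred, A-C was in replicate 1 in 37.6% of 744 triads and in 10.4% of 1291 open chains.

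Recurrence of all 3 loops was higher where the weakest loop had more contacts. All 3 loops recurred in 2.26% of triads whose weakest loop had under 20 contacts, in 6.31% at 20 to under 30, in 12.6% at 30 to under 40 and in 21.8% at 40 or more (95% Wilson interval 17.8 to 26.4). The weakest loop had a median of 33 contacts in triads with 3 loops recurring and of 21 in those with none, while the median spans were 215 and 220 kb. By chromosome the share with 3 recurring loops lay between 5.70% on chromosome 8 and 12.2% on chromosome 10. Of replicate 1's 145 triads, 51 (35.2%, 95% Wilson interval 27.9 to 43.2) had all 3 loops in replicate 2. Of all single loops of replicate 1, 46.1% were found in replicate 2, a share for 1 loop and not for 3 together. With identical anchors required, 28 triads of replicate 2 had all 3 loops in replicate 1. In these 28, the median contacts in replicates 2 and 1 were 47.5 and 24 at A-B, 42 and 24 at B-C, and 34 and 19 at A-C.

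**Figure D3:**
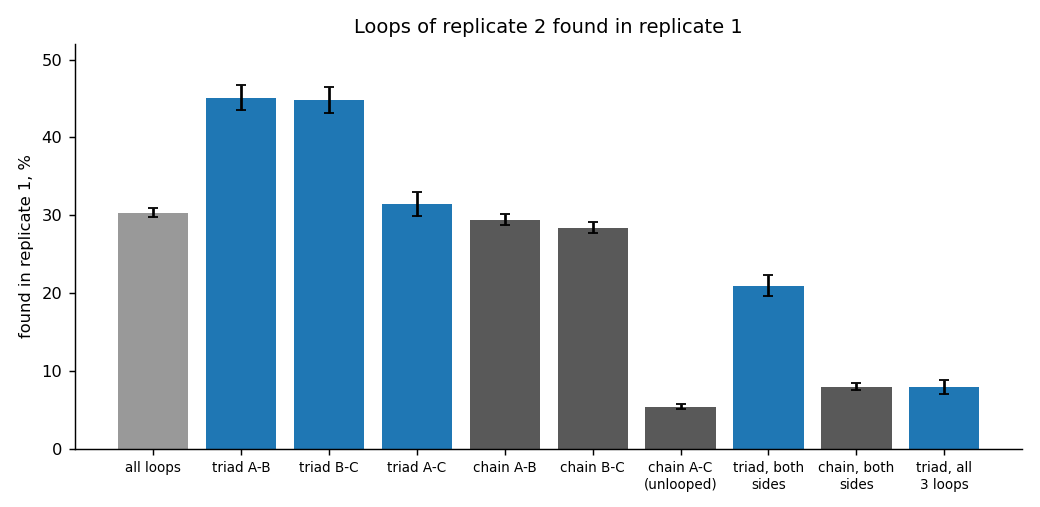
Share of replicate 2 loops, pairs and triads found in replicate 1 by 1 bp of overlap at both anchors, with 95% Wilson intervals; the bars of triads are blue, those of open chains dark grey and that of all loops light grey. Side loops of triads stand at 45.1% and 44.8%, above the 30.3% of all loops, and all 3 loops together at 7.89%.

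Of the 28 triads identical in both replicates, 6 had at least 20 contacts in each of their 6 measurements, and the 3 with the highest lowest donut ratio are described here. The first lay on chromosome 6, with A at chr6:7240001-7250000, B at chr6:7400001-7410000 and C at chr6:7480001-7490000. A-B held 65 contacts in replicate 2 and 37 in replicate 1, B-C 131 and 62, and A-C 56 and 22. The donut ratios were 6.18 and 9.22 at A-B, 7.64 and 6.54 at B-C, and 9.31 and 7.22 at A-C. The nearer pair thus had the most contacts in both libraries. A and C touched a domain boundary of replicate 2, and A and B one of replicate 1, and no single domain held all 3.

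The second lay on chromosome 2, with A at chr2:74670001-74680000, B at chr2:74910001-74920000 and C at chr2:75020001-75030000. Its contacts were 27 and 22 at A-B, 72 and 35 at B-C, and 60 and 23 at A-C, in replicates 2 and 1, so that the outer loop, 350 kb long, had more contacts than the left side of 240 kb in both. All 6 donut ratios lay between 5.76 and 6.92. In replicate 2 a level 0 domain at chr2:74670001-75020000 had its start and end at A and C. The third, on chromosome 10, had A at chr10:56830001-56840000, B at chr10:56990001-57000000 and C at chr10:57100001-57110000. Its contacts were 94 and 35 at A-B, 50 and 27 at B-C, and 33 and 20 at A-C, the same order in both replicates.

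The triad nearest to the medians among those with 3 recurring loops was on chromosome 1, with A at chr1:14080001-14090000, B at chr1:14200001-14210000 and C at chr1:14310001-14320000. It had 51, 56 and 25 contacts at A-B, B-C and A-C in replicate 2, with donut ratios of 4.90, 4.22 and 5.29. In replicate 1 its side loops were listed at 5 kb, with 18 and 14 contacts, and its outer loop at 25 kb, with 50 contacts, values that are not comparable across anchor sizes. All 3 of its anchors touched domain boundaries in both replicates, and in replicate 2 A and C lay at the ends of 1 level 0 domain.

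The extremes of span had the same loop in replicate 1, B-C alone. The shortest triad with the most contacts, on chromosome 8 with A at chr8:152030001-152040000 and C at chr8:152110001-152120000, had 72, 175 and 74 contacts. Its B-C loop had 43 contacts in replicate 1, where it was listed at 5 kb, so that this value is not comparable with the 175. The longest spanned 12810 kb on chromosome 10, from chr10:105800001-105810000 to chr10:118610001-118620000, with 44 contacts over 12700 kb at A-B, 43 over 110 kb at B-C and 21 at A-C. Its B-C loop had 19 contacts in replicate 1. The donut expectation at its A-B was 8.43 contacts, against a median of 5.17 over the outer loops of all triads. The next longest, at 12700 and 12500 kb, had the same anchor A. None of the 4 loops that tie this anchor to the others in these triads was found in replicate 1.

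Strong loops also met in open chains. Among the 778 open chains with at least 20 contacts in both loops, both recurring, and no loop of either replicate within 1 bin of A-C, the 2 with the highest lower donut ratio lay on chromosomes 1 and 6. In the first, A was at chr1:289640001-289650000, B at chr1:289680001-289690000 and C at chr1:289760001-289770000. A-B had 67 contacts in replicate 2 and 50 in replicate 1, and B-C 114 and 80. Its donut ratios at A-B and B-C were 35.5 and 14.1 in replicate 2, by which it was picked, and 6.95 and 49.6 in replicate 1, at 5-kb anchors. The donut expectation at its A-B was only 1.89 contacts in replicate 2. Its 67 contacts there lay within the quartiles of open-chain side loops under 50 kb, 39 and 70. The second spanned 390 kb from chr6:28120001-28130000 to chr6:28510001-28520000, with 135 and 27 contacts at A-B and 39 and 14 at B-C. In replicate 1 its A-B loop was listed at 5 kb, so that 135 and 27 are not comparable. Its A, B and C each touched a domain boundary in both replicates.

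**Figure D4:**
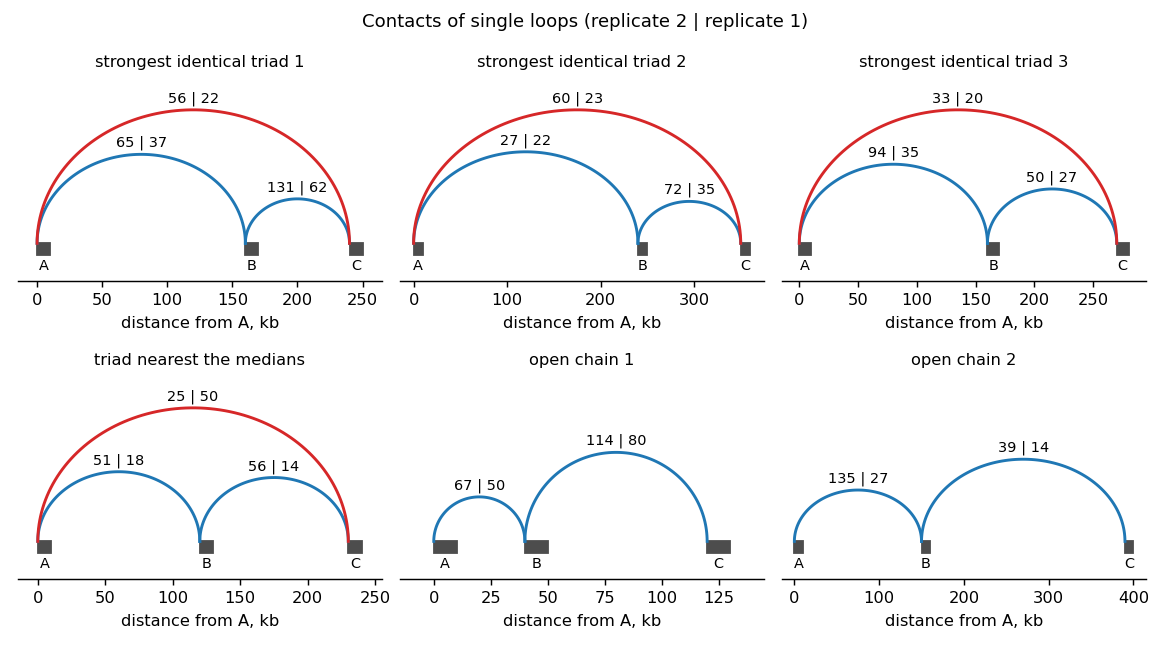
Loops of the 4 triads and 2 open chains described singly, drawn as arcs against the distance from A in kb, with side loops blue, outer loops red and anchors as grey boxes. The labels give contacts in replicate 2 and then in replicate 1, and in the bottom row some loops of replicate 1 had anchors of 5 or 25 kb, so that their contacts are not on 1 scale with those of replicate 2.

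Triads lay inside single domains more often than open chains of the same span. Over all loops of replicate 2, 77.9% had both anchors in 1 domain of that replicate and 77.8% in 1 of replicate 1. The outer pair was a listed loop in triads only, so that comparisons of A and C with open chains also set listed pairs against unlisted ones. All 3 anchors were in 1 domain, or at its boundary, in 2218 triads (62.5%) and 5706 open chains (35.2%). At equal span the shares were 63.5% and 48.3%, a difference of 15.2 percentage points that was positive on 10 of 10 chromosomes (8.56 to 21.4). With the domains of replicate 1, a library that the triad rule did not use, they were 64.6% and 48.5%. Read the other way, 28.0% of chains in 1 domain were closed, against 11.3% of those in no single domain, without span held equal. Where a domain held the triad, the smallest such domain had a median size of 270 kb, of which the triad spanned a median of 77.8%. It was of level 0 in 59.0%, level 1 in 30.1% and level 2 in 8.70% of 2218 triads.

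The ends of triads met domain boundaries more often than the ends of open chains, and the middle less often. An anchor was taken as at a boundary when it overlapped the 2 kb on either side, which was so for 34.7% of all anchors of replicate 2 with its own domains and 32.6% with those of replicate 1. At equal span, A was at a boundary in 41.6% of triads and 32.0% of open chains, with triads higher on 9 of 10 chromosomes. C was so in 58.1% and 43.6%, with triads higher on 10 of 10. B was at a boundary in 40.5% of triads and 46.6% of open chains, with triads higher on 1 of 10 chromosomes. For boundaries of level 0, the outermost domains, B was there in 17.0% of triads and 25.6% of open chains, with triads higher on 0 of 10. Domains of replicate 1 gave differences of 8.78, -5.35 and 15.3 percentage points for A, B and C, close to the 9.66, -6.17 and 14.5 of replicate 2.

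The middle anchor's place separated chains further. Where B was at a level 0 boundary, 11.2% of 5454 chains were closed (95% Wilson interval 10.4 to 12.0). Where it was at a boundary of deeper levels only, 19.8% of 4183 were closed, and at no boundary 20.9% of 10112, without span held equal. With domains of replicate 1 the chains with B at no boundary were closed in 20.6%, and those with B at a boundary of deeper levels in 19.8%.

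A triad could fill a domain from end to end. A lay at the start and C at the end of 1 domain in 433 triads (12.2%) and 573 open chains (3.54%). At equal span the shares were 12.4% and 4.80%, and triads were higher on 10 of 10 chromosomes (by 3.47 to 12.0 percentage points). Over all loops, 11.2% had their anchors at the ends of 1 domain, and 9.99% with domains of replicate 1. The share of triads was near that over all loops, but loop length was not held equal in this comparison. The outer pair was a listed loop in triads and an unlisted pair in open chains by the rule. In 327 of the 433 triads the middle anchor was at no boundary. With domains of replicate 1 the shares were 11.4% and 4.51%. Side loops were bounded in the same way in 14.3% (A-B) and 19.5% (B-C) of triads, against 10.4% and 14.7% of open chains. In 240 triads (6.76%) A-B and B-C each matched a domain, so that 2 neighbouring domains met at B, against 3.17% of open chains, without span held equal.

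The shares at A and at C are not comparable with each other, because boundaries and anchors shared a 10-kb grid and the overlap rule took in boundaries at the start and end of an anchor only. Boundaries were most frequent at the anchor's start, in 32.8% of A and 35.0% of C in triads. At 1 bin to the left they were found in 21.5% of A, which the rule left out, and at 1 bin to the right in 22.9% of C, which it took in. Left and right anchors of all loops differed in the same way, with 18.0% of left anchors having a boundary 1 bin to the left and 18.4% of right anchors 1 bin to the right. With a boundary within 1 bin on either side of the start, the shares in triads at equal span were 63.1% at A, 52.8% at B and 70.6% at C, against 49.6%, 60.8% and 53.3% in open chains.

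In the triads of replicate 1 with its own domains, the middle anchor depended on how anchors were defined. With exact anchors, 64 triads entered the equal-span comparison and B was at a boundary in 39.1%, against 37.4% of open chains. With overlapping anchors joined, 1046 triads entered and the shares were 52.2% and 58.8%. A single domain held 64.1% of triads and 58.8% of open chains with exact anchors, and 59.7% and 42.9% with joined anchors, so that the difference with exact anchors was smaller than in replicate 2.

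**Figure D5:**
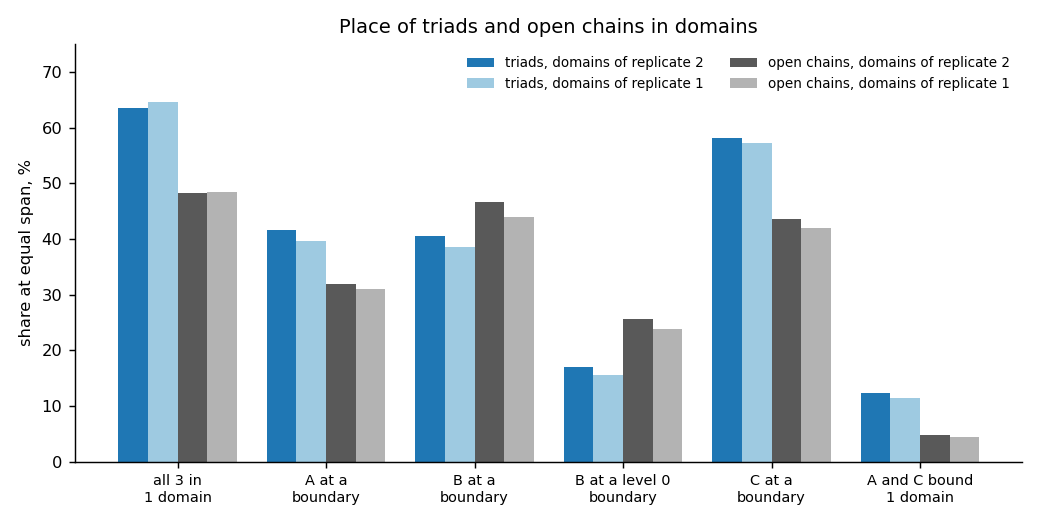
Share of triads (blue) and open chains (grey) of replicate 2 placed in domains, with span held equal in bins of 50 kb; dark bars use the domains of replicate 2 and light bars those of replicate 1. Triads stand higher for a single domain (63.5% against 48.3%), for A, for C and for A and C at the ends of 1 domain (12.4% against 4.80%), and lower for B (40.5% against 46.6%), with both sets of domains.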

How the data were processed

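Both libraries of B73 leaf at v04 were used. The authors mapped reads to B73 RefGen_v4 with Juicer and called loops with HICCUPS (Juicer Tools 1.9.9 for replicate 1, 1.14.08 for replicate 2) and hierarchical domains with HiTAD. The deposited loop lists give contacts as counts per loop, expected values as a signal from local backgrounds (donut and lower-left), and q-values. The deposited domain lists give start, end and level.

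Chains were pairs of loops sharing a middle anchor by exact coordinates. Span and loop length were held equal in bins of 50 kb with at least 20 members per group, weighted as the triads or chains. Shares carry 95% Wilson intervals. No test between conditions was possible. Members, lists and settings were chosen with earlier results of these data known. Triads described singly were chosen by a fixed rule: strength in both replicates, longest and shortest span, nearness to the medians, most triads of an anchor, largest mutually looped set, and strongest open chains. The next longest triads were added after their values were seen. Steps were tested on simulated data. Genes and sequences at anchors were not analysed here. Python 3.11.15, pandas 2.3.3, scipy 1.17.1 and networkx 3.6.1 were used.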

Additional observations from a re-analysis of the deposited data

Results flagged for a closer look

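Chr0, which gathers sequence not placed on a chromosome, was left out of all comparisons although the loop lists hold loops on it. It held 118 closed triads among 345 chains in replicate 2 (34.2%, 95% Wilson interval 29.4 to 39.4). In replicate 1 it held 111 closed triads among 284 chains (39.1%, 95% Wilson interval 33.6 to 44.9). Both shares lie above those of chromosomes 1 to 10 in the same replicate by the same rule, 18.0% and 5.20%. Sequence on Chr0 has no known place on a chromosome, and these chains were not compared by span.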

How the results depend on the processing

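Of 76 alternative values for 13 results, 37 moved by less than the spread allowed, 38 moved and 1 changed sign, and 14 were chosen after seeing the data. The spread allowed was a fixed fold range for the count of triads and the Wilson interval for recurrence. For the other results it was a fixed fraction of the gap between the replicates. There the replicate 1 value had to count as moved or reversed, and a wide gap let other settings count as unmoved. The tally is therefore no measure of how firm the results are. Closed triads numbered 5357 with A-C within 1 bin, 7342 with touching anchors joined, and in replicate 1 145 (exact), 1130 (joined) and 67 (10-kb anchors only). The closed share was 27.1% with A-C within 1 bin, and 5.20% and 5.31% in replicate 1 (exact, 10-kb only). Other pairs were looped in 0.581% in replicate 1 with exact anchors, a share lowered by pairs of unlike anchor size. The span difference was -240 kb at the 90th percentile, and -90 kb and -77.5 kb in replicate 1 (exact, joined), against -110 kb.

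Side loops of triads exceeded those of open chains by 14 contacts without bins, by 3.71 in replicate 1, by 3.37 over loops identical in replicate 1 and by 1.03 in their replicate 1 values, against 6.98. The donut ratio differed by 0.118, 0.249, 0.239 and 0.071 in the same order and by 0.279 with expectedBL, against 0.394. The outer loop over the weaker side was 1.44 with expectedBL, 1.04 over the mean of the sides and 1.31 in replicate 1.

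All 3 loops recurred in 0.789% of triads, both loops in 1.56% of open chains and A-C in 1.69% of open chains with identical anchors, and equally with replicate 1 loops of 10 kb only. With replicate 2 loops of at least 20 contacts they recurred in 10.3%, 11.4% and 7.62%.

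The share in 1 domain differed by 27.3 percentage points without bins and 5.26 in replicate 1. The middle anchor at a boundary reversed to 1.66 in replicate 1 with exact anchors (64 triads), against -6.17, but was -6.64 with its anchors joined. Outer anchors at both ends of 1 domain differed by 4.14 at level 0, 2.97 in replicate 1 and 13.4 with boundaries within 1 bin of the anchor start, against 7.60. The causes were not tested. Boundary margins of 1 bp, 2 kb and 10 kb gave equal values because anchors and boundaries share a grid, and the margin of 10 kb stopped just short of the next bin. These margins could not move the values, yet they count as unmoved in the tally. So does the share in 1 domain with level 0 only, which was also equal to the reported value. No paired analysis was possible because all samples are of 1 group. Recurrence moved with contacts: all 3 loops recurred in 24 of 1064 triads with a loop under 20 contacts, against 77 of 353 at 40 or more.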
